A study of Mus musculus with 16 samples.

Results

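Ketone body synthesis was followed in mouse liver through 4 genes, Acat1, Bdh1, Slc16a1 and Slc16a6, which were chosen by name and found in the deposited table by their Ensembl gene identifiers on GRCm38. They are 4 of the 55487 gene rows in that table. TPM give a transcript's abundance per length as a share of its library. All 4 had a mean of at least 1 TPM over the 16 libraries, the minimum for a test, and none was left out.

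Livers came from 16 male C57BL6/J mice made obese on a diet with 60 kcal% fat. The question was how dietary protein alters the response to G108, a long-acting agonist of the glucagon receptor. The 4 groups held 4 mice each, with 1 library per mouse. Vehicle SP received vehicle on the high-fat standard protein (SP) diet, vehicle HP received vehicle on the high-fat high protein (HP) diet, and G108 SP and G108 HP received G108 on the same diets. G108 was injected under the skin daily at 2.5 nmol/kg for 22 days. All mice were of the same strain and sex, with no allele given in the labels, were housed singly and were fasted for 4 h before the livers were taken. By the sample records, mice were 10 weeks old when a high-fat diet of 8 weeks began and were culled on day 25. The study's methods give a younger age, divide the high-fat feeding before treatment between that diet and the SP or HP diet, and give an earlier end. Whole liver was sequenced, so fewer cells of a type and less RNA per cell cannot be told apart in these values.

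Ketone bodies are made in the mitochondria of hepatocytes when fatty acids are oxidised faster than the citric acid cycle takes up acetyl-CoA, as in fasting, and glucagon favours the process. Thiolase joins acetyl-CoA into acetoacetyl-CoA, further mitochondrial enzymes turn this into acetoacetate, and a dehydrogenase reduces acetoacetate to β-hydroxybutyrate. The liver cannot use what it makes because it lacks the CoA transferase of other tissues, so both ketone bodies leave through monocarboxylate transporters. Acat1 encodes the mitochondrial thiolase, which also completes isoleucine breakdown, and Bdh1 encodes the mitochondrial β-hydroxybutyrate dehydrogenase. Slc16a1 encodes MCT1, a transporter of lactate, pyruvate and ketone bodies, and Slc16a6 encodes MCT7, a transporter linked to the export of β-hydroxybutyrate from hepatocytes.

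On GRCm38, Acat1 (ENSMUSG00000032047) lies at chr9:53580522-53610382 on the minus strand with 3758 exonic bases, and Bdh1 (ENSMUSG00000046598) at chr16:31422280-31458901 on the plus strand with 3888. Slc16a1 (ENSMUSG00000032902) lies at chr3:104638668-104658462 on the plus strand with 4426 exonic bases, and Slc16a6 (ENSMUSG00000041920) at chr11:109450855-109473598 on the minus strand with 4883. Acat1 shared no exonic base with another annotated gene. Slc16a6 shared 1052 exonic bases, 21.5% of its exons, with Amz2 on the opposite strand, and Bdh1 shared 533 bases, 13.7%, with the antisense gene Gm15743. The strand setting of the counting was not given in the sources used here, so reads over those stretches could belong to either gene. Mean levels over the 16 libraries were 1.85 TPM for Amz2 and 0.411 TPM for Gm15743.

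Because all 4 genes are read out at the level of transcripts, the start regions of those with a RefSeq promoter window (GRCm38.p6) are shown, each with 250 bases before and 50 bases after the start, the latter in capitals. Windows were found for Slc16a1 and for 2 starts of Bdh1. Slc16a1 starts in a window of chr3:104638414-104638713, and Bdh1 in windows of chr16:31422047-31422346 and chr16:31428503-31428802, all on the plus strand.

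Slc16a1, chr3:104638414-104638713: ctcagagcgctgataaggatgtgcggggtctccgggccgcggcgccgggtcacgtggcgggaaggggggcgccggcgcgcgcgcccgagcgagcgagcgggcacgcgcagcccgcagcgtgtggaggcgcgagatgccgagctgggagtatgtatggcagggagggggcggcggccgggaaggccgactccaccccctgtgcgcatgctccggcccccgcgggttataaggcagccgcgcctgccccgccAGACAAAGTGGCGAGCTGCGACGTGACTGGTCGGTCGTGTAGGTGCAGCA

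Bdh1 upstream start, chr16:31422047-31422346: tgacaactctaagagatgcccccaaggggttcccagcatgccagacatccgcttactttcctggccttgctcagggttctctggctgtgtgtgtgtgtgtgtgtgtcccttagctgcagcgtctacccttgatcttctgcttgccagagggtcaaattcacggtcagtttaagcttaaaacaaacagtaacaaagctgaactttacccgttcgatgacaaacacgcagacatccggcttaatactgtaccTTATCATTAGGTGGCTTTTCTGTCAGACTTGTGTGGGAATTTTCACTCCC

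Bdh1 downstream start, chr16:31428503-31428802: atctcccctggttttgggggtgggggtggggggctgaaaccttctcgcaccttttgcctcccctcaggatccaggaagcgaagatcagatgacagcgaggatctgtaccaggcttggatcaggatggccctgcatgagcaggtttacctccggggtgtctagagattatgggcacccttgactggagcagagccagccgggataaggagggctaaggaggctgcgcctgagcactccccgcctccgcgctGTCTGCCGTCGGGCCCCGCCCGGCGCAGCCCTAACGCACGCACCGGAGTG

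The windows differed in base composition. G and C made up 73.7% of the Slc16a1 window, more than in 94.9% of the 32851 mouse promoter windows. For Bdh1 they made up 48.3% at the upstream start and 63.7% at the downstream start, more than in 33.2% and 79.1% of windows. The cAMP response element TGACGTCA and its short form TGACG, and the PPAR element of 2 copies of AGGTCA set 1 base apart and its single copy AGGTCA, were searched on both strands. Each short form lies within its long form. The long forms occurred in 1.79% and 0.0396% of all windows and the short forms in 20.8% and 16.3%. None of the 4 words occurred in the 3 windows, which says only that these letters are not in these stretches.

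Recovered depth ranged from 27.8 to 45.03 M assigned reads per library and was lower with G108. Group medians were 40.4 M in vehicle SP, 37.2 M in vehicle HP, 29.7 M in G108 SP and 31.2 M in G108 HP. Reads per library behind the values were 2978 to 9616 for Acat1, 2352 to 6683 for Bdh1, 148 to 613 for Slc16a1 and 110 to 359 for Slc16a6. TPM are shares of a library. Transcripts of the Major urinary protein (Mup) genes held a median of 44.9% of TPM in vehicle SP, 39.1% in vehicle HP, 20.5% in G108 SP and 24.5% in G108 HP, and G108 mice on SP exceeded vehicle mice by a median log2 fold change of 0.60 over the 11839 genes compared. Median-of-ratios scaling, which brings the bulk of genes in every library to one level, moved that median to 0.00, and the fold changes of the 4 genes are therefore given on both scales. The libraries of vehicle SP mouse 4 and G108 HP mouse 3 stood apart, with mean correlations with all others of 0.929 and 0.959 against 0.967 to 0.976 for the rest. Their summed blood markers (5 genes) were 2106 and 2003 TPM against 605 to 1395 TPM elsewhere, and their summed hepatocyte markers (6 genes) 17720 and 25237 TPM against 26219 to 60549 TPM. Mitochondrial transcripts held 24.0% and 37.3% of their TPM, the highest shares of their groups, and by group a median of 16.1% in vehicle SP, 17.5% in vehicle HP, 19.0% in G108 SP and 24.2% in G108 HP. The part of these cells and transcripts in the results was not tested beyond the rescaling given in the closing section, and fold changes of the 4 genes are given with and without both libraries. Hepatocyte markers led in every library, as the tissue label implies, while summed Kupffer cell, endothelial, stellate and cholangiocyte markers (5 genes each) each summed to at most 94.0 TPM. Adipocyte and skeletal muscle markers (4 genes each) summed to at most 1.19 and 1.41 TPM and exocrine pancreas markers (4 genes) to 4.63 to 13.2 TPM. Nearly all of the pancreatic sum was Cela1, and Cpa1 and Pnlip reached at most 0.0203 and 0.0222 TPM. The adipocyte marker Lep and the pancreatic marker Prss2 were listed at 0 in all libraries.

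Acat1, the thiolase that opens the pathway, was the most abundant of the 4. In vehicle SP it measured 35.1, 68.8, 64.6 and 20.1 TPM in mice 1 to 4, and in G108 SP 72.8, 98.0, 107.9 and 106.7 TPM. All 4 mice given G108 on SP thus lay above all 4 given vehicle, which was so for 56.4% of genes tested in either direction. In vehicle HP Acat1 measured 39.4, 66.7, 64.7 and 65.4 TPM, and in G108 HP 68.5, 45.1, 29.9 and 90.4 TPM. These 2 groups overlapped, and G108 HP held both the widest spread and, apart from vehicle SP mouse 4, the lowest mouse. Group means ± SD (n = 4) were 47.1 ± 23.5 TPM in vehicle SP, 59.1 ± 13.1 in vehicle HP, 96.3 ± 16.3 in G108 SP and 58.5 ± 26.5 in G108 HP. After median-of-ratios scaling they were 55.5 ± 20.7, 63.6 ± 12.4, 69.6 ± 5.41 and 55.5 ± 18.0 TPM.

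Bdh1, whose enzyme reduces acetoacetate to β-hydroxybutyrate, followed the same order at a lower level per length. It measured 24.5, 49.8, 39.5 and 15.3 TPM in vehicle SP and 46.1, 60.8, 69.3 and 64.4 TPM in G108 SP. G108 SP mouse 1 fell below vehicle SP mouse 2, so these groups overlapped by 1 pair of mice. Bdh1 measured 33.6, 51.9, 46.8 and 42.6 TPM in vehicle HP and 38.0, 31.5, 22.1 and 56.9 TPM in G108 HP. Of the mice on HP, G108 mice 2 and 3 lay below every vehicle mouse and G108 mouse 4 above every one. Means ± SD (n = 4) were 32.3 ± 15.3 TPM in vehicle SP, 43.7 ± 7.78 in vehicle HP, 60.2 ± 10.0 in G108 SP and 37.1 ± 14.7 in G108 HP. After median-of-ratios scaling the order changed, with vehicle HP highest at 47.0 ± 4.97 TPM, then G108 SP at 43.4 ± 2.94, vehicle SP at 38.07 ± 12.7 and G108 HP at 35.4 ± 8.75.

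Slc16a1, for the transporter MCT1, was about an order of magnitude below Bdh1 in TPM. It measured 2.03, 4.33, 3.25 and 0.847 TPM in vehicle SP and 3.87, 4.81, 5.87 and 5.78 TPM in G108 SP. Here too G108 SP mouse 1 lay below vehicle SP mouse 2, and the other 3 mice given G108 lay above all vehicle mice. Slc16a1 measured 3.00, 3.96, 3.21 and 3.73 TPM in vehicle HP and 2.82, 3.01, 1.59 and 4.06 TPM in G108 HP. The G108 mice on HP spanned the whole range of the vehicle mice and more. Means ± SD (n = 4) were 2.62 ± 1.51 TPM in vehicle SP, 3.47 ± 0.447 in vehicle HP, 5.08 ± 0.941 in G108 SP and 2.87 ± 1.01 in G108 HP. After median-of-ratios scaling they were 3.05 ± 1.39, 3.75 ± 0.347, 3.66 ± 0.279 and 2.76 ± 0.675 TPM, and the 4 mice of G108 HP, at 2.76, 3.17, 1.81 and 3.29 TPM, lay below the 4 of vehicle HP, at 3.55, 3.70, 3.50 and 4.25 TPM. Groups did not overlap for 8.10% of genes in either direction, and the difference did not pass the test (log2 fold change -0.36, limma adjusted p = 0.610).

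Slc16a6, for the transporter MCT7, was the lowest of the 4 and the only one highest in vehicle SP mouse 4 among the vehicle mice. It measured 1.10, 1.34, 1.00 and 1.86 TPM in vehicle SP and 2.27, 1.99, 1.92 and 1.95 TPM in G108 SP. The groups did not overlap, as for 56.4% of genes tested in either direction. The gap between the highest vehicle mouse and the lowest G108 mouse was smaller than the spread within either group. Slc16a6 measured 1.21, 1.08, 0.985 and 0.847 TPM in vehicle HP and 1.21, 1.43, 1.61 and 1.02 TPM in G108 HP. Within G108 HP its order was the reverse of that of Acat1, with mouse 3 highest and mouse 4 lowest. Means ± SD (n = 4) were 1.33 ± 0.384 TPM in vehicle SP, 1.03 ± 0.153 in vehicle HP, 2.03 ± 0.163 in G108 SP and 1.32 ± 0.253 in G108 HP. After median-of-ratios scaling vehicle SP was highest at 1.68 ± 0.658 TPM, followed by G108 SP at 1.50 ± 0.308, G108 HP at 1.34 ± 0.427 and vehicle HP at 1.12 ± 0.212.

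**Figure D1:**
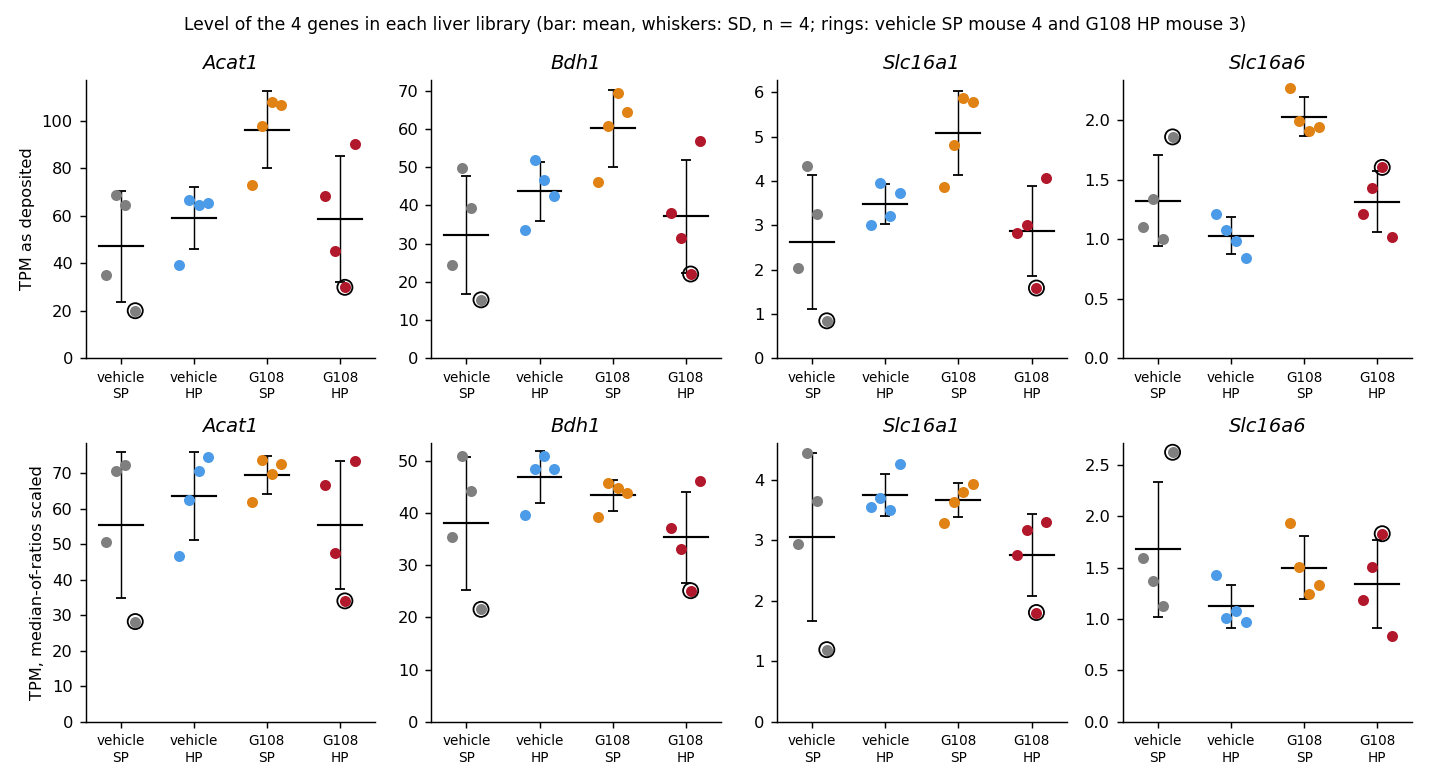
Level of the 4 genes in each liver library, as deposited TPM (upper row) and after median-of-ratios scaling (lower row), on linear axes that start at 0. Points are mice, bars are means and whiskers SD (n = 4), and rings mark vehicle SP mouse 4 and G108 HP mouse 3. In deposited TPM the mean of G108 SP is the highest for each gene, at 96.3 TPM for Acat1, and after scaling its mice lie within the range of the other groups.

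With TPM as deposited, all 4 genes were higher with G108 than with vehicle on SP. The log2 fold change was 1.15 for Acat1 (95% interval 0.37 to 1.94, limma adjusted p = 0.0114) and 0.99 for Bdh1 (0.31 to 1.67, limma adjusted p = 0.0117). It was 0.84 for Slc16a1 (0.28 to 1.41, limma adjusted p = 0.0107) and 0.40 for Slc16a6 (0.14 to 0.65, limma adjusted p = 0.00860). The calls of 4 of 4 genes stand against a background of 77.0% of all genes called higher (77.6% called in either direction), and their median log2 fold change of 0.92 against 0.60 over all genes. With all 16 libraries, Acat1, Bdh1 and Slc16a1 lay above that general shift and Slc16a6 below it. Without vehicle SP mouse 4 and G108 HP mouse 3 the median over all genes was 0.55. Slc16a1 at 0.56 and Slc16a6 at 0.50 then lay close to it, and Acat1 at 0.81 and Bdh1 at 0.69 above it. Among genes with a mean of at least 5 TPM the median with all libraries was 0.71, so the distance from the shift depends on the genes compared.

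After median-of-ratios scaling none of the 4 was called on SP, where 2.64% of all genes were. Log2 fold changes were 0.41 for Acat1 (95% interval -0.19 to 1.00, limma adjusted p = 0.447), 0.25 for Bdh1 (-0.22 to 0.72, limma adjusted p = 0.544), 0.28 for Slc16a1 (-0.18 to 0.74, limma adjusted p = 0.496) and -0.08 for Slc16a6 (-0.42 to 0.27, limma adjusted p = 0.811). None had an unadjusted p under 0.05, which 17.6% of all genes had. Voom on the recovered reads, with median-of-ratios factors computed from those reads, called none either. The direction of Slc16a6 thus turned with the scaling, and the intervals allow changes of either sign for each gene. Without vehicle SP mouse 4 and G108 HP mouse 3, all 4 were called on SP in deposited TPM, with 0.81 for Acat1, 0.69 for Bdh1, 0.56 for Slc16a1 and 0.50 for Slc16a6 (limma adjusted p of 0.0201, 0.0242, 0.0175 and 0.00226), where 74.8% of all genes were called. Without them and after scaling, the values were 0.12, 0.01, 0.01 and 0.08, and none was called.

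On HP, none of the 4 genes was called between G108 and vehicle in deposited TPM. The log2 fold change was -0.10 for Acat1 (95% interval -0.89 to 0.68, limma adjusted p = 0.977), -0.29 for Bdh1 (-0.97 to 0.39, limma adjusted p = 0.848), -0.24 for Slc16a1 (-0.81 to 0.32, limma adjusted p = 0.848) and 0.19 for Slc16a6 (-0.07 to 0.44, limma adjusted p = 0.616). Of all genes 1.11% were called in this comparison. None of the 4 had an unadjusted p under 0.05, against 11.9% of all genes. After scaling the values were -0.23, -0.42, -0.36 and 0.13 and none was called either (background 1.21%), and of the other fits only that with array quality weights called 1, Slc16a6 at 0.23. Without the libraries that stood apart, the values were 0.18, -0.08, -0.06 and 0.13, so the sign for Acat1 changed and no call was made. With scaling as well they were -0.02, -0.27, -0.22 and 0.03, again with no call.

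Between HP and SP with G108, the fitted difference was negative for all 4 genes, with HP below SP, and none passed adjustment. Log2 fold changes were -0.81 for Acat1 (limma adjusted p = 0.106), -0.75 for Bdh1 (0.0955), -0.68 for Slc16a1 (0.0857) and -0.39 for Slc16a6 (0.0728). The unadjusted limma p was under 0.05 for all 4, as for 45.0% of genes tested, and limma called 0% of genes after adjustment. Their median of -0.71 compares with -0.35 over all genes. The 4 mice of G108 HP lay below the 4 of G108 SP for Slc16a6, as for 20.7% of genes in either direction, and the groups overlapped for the other 3. G108 HP mouse 4, the mouse with the highest Acat1, Bdh1 and Slc16a1 of its group, weighed on this comparison. Without it all 4 genes were called, at -1.06, -0.97, -0.82 and -0.33, as were 42.8% of all genes. Without vehicle SP mouse 4, Slc16a1 and Slc16a6 were called at unchanged values of -0.68 and -0.39, as were 14.5% of all genes. After median-of-ratios scaling the values were -0.38, -0.32, -0.33 and -0.11, with no unadjusted p under 0.05 (5.24% of all genes). Without both libraries that stood apart they were -0.53, -0.53, -0.50 and -0.45 in deposited TPM and -0.17, -0.17, -0.19 and -0.21 after scaling, and none was called.

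With vehicle, HP and SP gave log2 fold changes of 0.44 for Acat1, 0.54 for Bdh1, 0.41 for Slc16a1 and -0.18 for Slc16a6 (limma adjusted p = 0.727 for each). Limma called 0% of all genes here, and 3.16% had an unadjusted p under 0.05, none of the 4 among them. After scaling the values were 0.26, 0.36, 0.30 and -0.31. With the libraries that stood apart left out they were 0.10, 0.24, 0.12 and -0.08 in deposited TPM and -0.03, 0.11, 0.03 and -0.16 after scaling, so each lay closer to 0 and that of Acat1 changed sign after scaling. None of the 4 was called in these fits.

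The interaction, the G108 effect on HP minus that on SP, was -1.26 for Acat1 (95% interval -2.37 to -0.14, limma adjusted p = 0.0851), -1.28 for Bdh1 (-2.24 to -0.33, limma adjusted p = 0.0799) and -1.09 for Slc16a1 (-1.89 to -0.29, limma adjusted p = 0.0799). For Slc16a6 it was -0.21 (-0.57 to 0.15, limma adjusted p = 0.311). The unadjusted p was under 0.05 for the first 3, as for 48.0% of all genes, and limma called 0% after adjustment, so a different response to G108 on the 2 diets was not shown for any of the 4. Leaving out G108 HP mouse 4 or vehicle SP mouse 2 brought the interaction of these 3 genes under the threshold, to between -1.53 and -1.23, where 44.0% and 29.2% of all genes were called. Leaving out G108 SP mouse 1 did so for Bdh1 (-1.40) and Slc16a1 (-1.19), as for 33.7% of all genes. After scaling the interaction was -0.64, -0.67, -0.63 and 0.20, and its unadjusted limma p was under 0.05 for Bdh1 alone of the 4 (limma adjusted p = 0.580), as for 7.03% of all genes. Without the libraries that stood apart it was -0.63, -0.77, -0.62 and -0.37 in deposited TPM and -0.14, -0.28, -0.23 and -0.05 after scaling, and none was called.

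**Figure D2:**
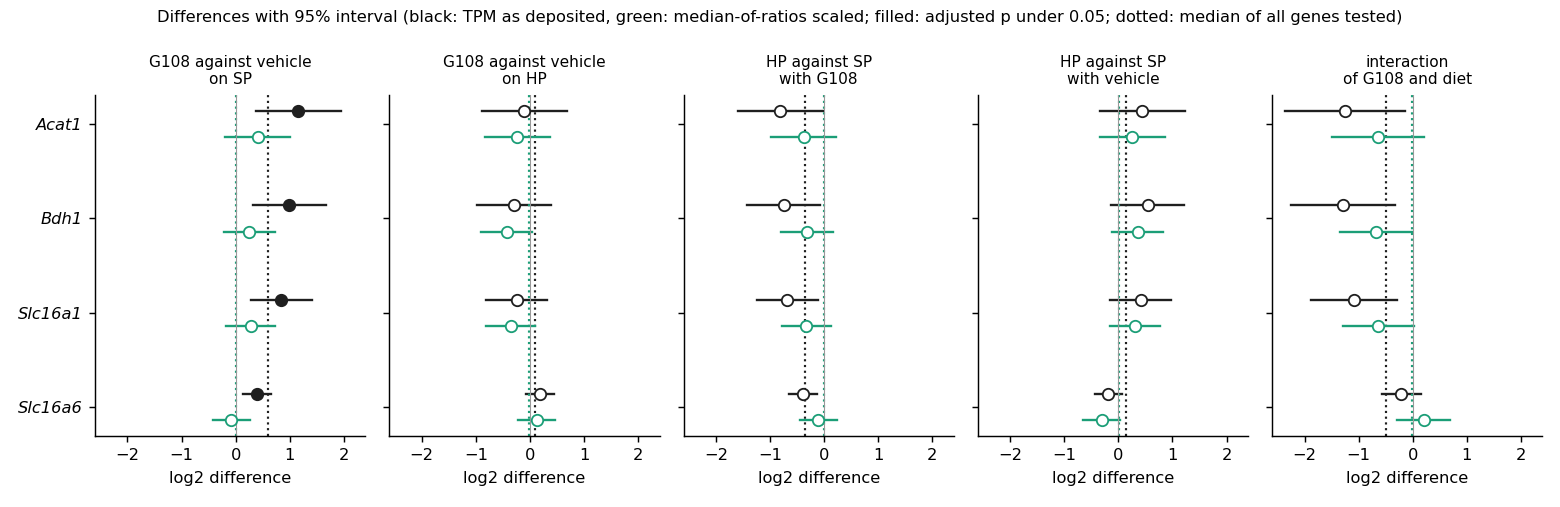
Log2 differences of the 4 genes in 5 comparisons, with 95% intervals from limma. Black points are TPM as deposited and green points median-of-ratios scaled, filled where the adjusted p is under 0.05, and dotted lines mark the median of all genes tested. The 4 filled points are those of G108 against vehicle on SP in deposited TPM, from 0.40 to 1.15.

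The remaining pairs complete the order of the groups. In deposited TPM, Acat1, Bdh1 and Slc16a1 ranked G108 SP, vehicle HP, G108 HP and vehicle SP from high to low. No neighbours in that order passed adjustment. The log2 difference of G108 SP from vehicle HP was 0.71 for Acat1 (limma adjusted p = 0.104), 0.45 for Bdh1 (0.212) and 0.43 for Slc16a1 (0.157). In Acat1 the 4 mice of G108 SP, from 72.8 to 107.9 TPM, lay above the 4 of vehicle HP, from 39.4 to 66.7 TPM, and groups did not overlap in this pair for 45.7% of genes. When the libraries that stood apart, which belong to neither group, were left out, the values were the same and Acat1 and Slc16a1 were called (limma adjusted p of 0.0299 and 0.0410), as were 65.2% of all genes. After scaling the 3 values were 0.15, -0.11 and -0.03, with no call against 1.05% of all genes, so the sign turned for Bdh1 and Slc16a1. The difference of G108 HP from vehicle SP was 0.34, 0.25 and 0.17 (limma adjusted p of 0.515, 0.585 and 0.659), and 0.03, -0.07 and -0.05 after scaling. Leaving out the libraries that stood apart gave 0.27, 0.16 and 0.06 in deposited TPM and -0.05, -0.16 and -0.19 after scaling. Slc16a6 ranked G108 SP, vehicle SP, G108 HP and vehicle HP, and among neighbours only G108 SP and vehicle SP passed adjustment. G108 SP also exceeded vehicle HP in Slc16a6, by 0.58 (limma adjusted p = 0.00440). With all libraries this was the single call among the 4 in that pair, where 53.1% of all genes were called, and after scaling the value was 0.23 with no call. For G108 HP against vehicle SP, 4.49% of genes were called and none of the 4, and Slc16a6 differed by 0.00 (95% interval -0.25 to 0.26). After scaling it differed by -0.18, and 2.75% of genes were called and none of the 4. None of the 4 had an unadjusted p under 0.05 in that pair, against 24.3% of all genes.

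A ratio of 2 genes within a library does not move with the scaling between libraries. The ratio of Bdh1 to Acat1 in TPM was 0.697, 0.723, 0.611 and 0.763 in vehicle SP, 0.851, 0.779, 0.722 and 0.651 in vehicle HP, 0.633, 0.620, 0.643 and 0.603 in G108 SP and 0.555, 0.699, 0.738 and 0.629 in G108 HP. The 4 mice of G108 SP, from 0.603 to 0.643, lay just below the 4 of vehicle HP, from 0.651 to 0.851, and the other groups overlapped them. The ratio was not tested, and how often other ratios separate these groups was not computed. Means ± SD (n = 4) were 0.699 ± 0.0645, 0.751 ± 0.0847, 0.625 ± 0.0171 and 0.655 ± 0.0805 in the same order. The ratio of Slc16a6 to Slc16a1 was 0.543, 0.308, 0.308 and 2.20 in vehicle SP, 0.404, 0.273, 0.307 and 0.227 in vehicle HP, 0.587, 0.415, 0.326 and 0.337 in G108 SP and 0.430, 0.474, 1.01 and 0.252 in G108 HP. Only in the libraries of vehicle SP mouse 4 and G108 HP mouse 3 did Slc16a6 exceed Slc16a1 per length, and these are the libraries that stood apart.

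Across the 16 libraries, after median-of-ratios scaling, Acat1, Bdh1 and Slc16a1 varied together and Slc16a6 ran against them. Pearson's r on log2(scaled TPM + 1) was 0.93 for Acat1 with Bdh1 (Spearman's rho 0.74), 0.87 for Acat1 with Slc16a1 (rho 0.67) and 0.94 for Bdh1 with Slc16a1 (rho 0.80). For Slc16a6 it was -0.78 with Acat1 (rho -0.67), -0.81 with Bdh1 (rho -0.71) and -0.72 with Slc16a1 (rho -0.53). Without the libraries that stood apart the first 3 values were 0.74, 0.46 and 0.75, and those of Slc16a6 were -0.50, -0.57 and -0.23, so the strength of each relation rested in part on those libraries. In TPM as deposited, r lay between 0.95 and 0.98 among Acat1, Bdh1 and Slc16a1 and between 0.056 and 0.095 for Slc16a6 with each. These values describe 16 libraries in 4 groups that share their library factors, and carry no test.

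**Figure D3:**
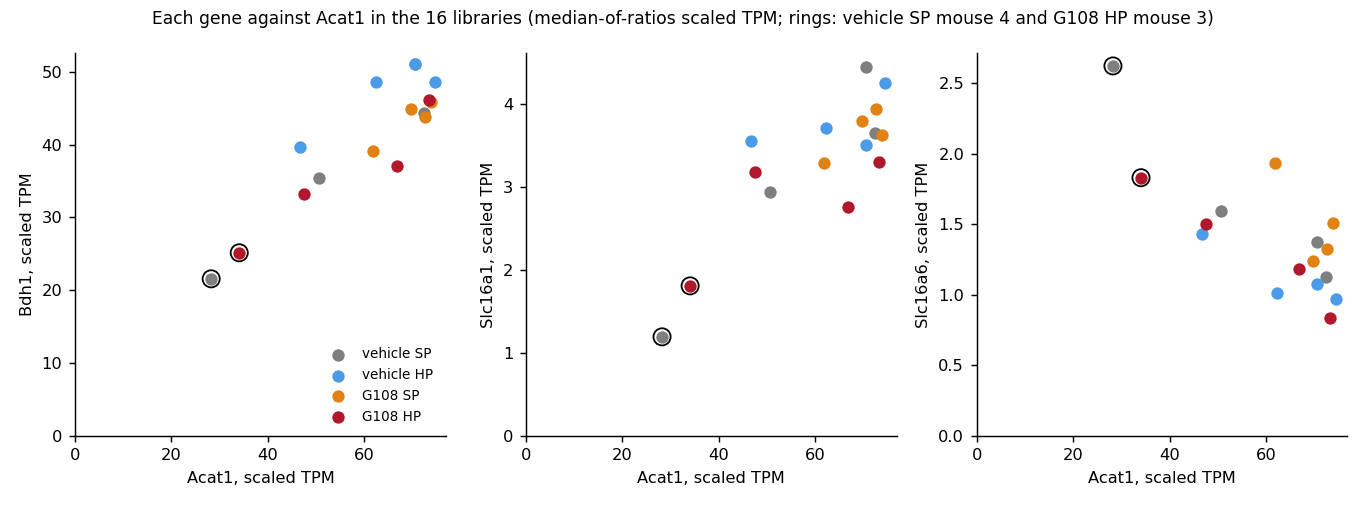
Bdh1, Slc16a1 and Slc16a6 against Acat1 in the 16 libraries, in median-of-ratios scaled TPM on linear axes that start at 0. Points are mice coloured by group, and rings mark vehicle SP mouse 4 and G108 HP mouse 3. The ringed libraries are the lowest in Acat1, Bdh1 and Slc16a1, and in Slc16a6 they measure 2.62 and 1.83 TPM, the highest and the third highest values.

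The genes whose scaled levels ran most like each of the 4 over the 16 libraries were sought among the 3 with the highest r of 11839. For Acat1 these were Decr1 (r = 0.99), an auxiliary enzyme of β-oxidation, Hadhb (0.98), the thiolase subunit of the trifunctional protein, and Cryz (0.98), a quinone reductase. For Bdh1, P4hb (0.97), a protein disulfide isomerase, and Hsd17b12 (0.96), a reductase of fatty acid elongation, were among them. Without the libraries that stood apart, Decr1 and Hadhb kept ranks 1 and 2 for Acat1, while P4hb and Hsd17b12 took ranks 7 and 13 for Bdh1. For Slc16a1 they were Drg1 (0.95), a GTP-binding protein, Lamtor1 (0.94), a lysosomal anchor of mTORC1 signalling, and Bdh1 (0.94). Without those libraries Drg1 took rank 12, Lamtor1 rank 365 and Bdh1 rank 32. For Slc16a6, Ilkap (0.94), a phosphatase, and Camsap3 (0.94), a microtubule-binding protein, were among them. Ilkap and Camsap3 took ranks 4 and 9 without the libraries that stood apart, and ranks 241 and 2 in TPM as deposited.

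A list of 8 further enzymes, called ketone enzymes here, covered ketone body, acetoacetyl-CoA and acetyl-CoA metabolism. Of these, 5 were high enough to test, and Oxct1, the CoA transferase that the liver lacks, was not, at a mean of 0.374 TPM. The 5 tested include cytosolic enzymes and enzymes of cholesterol and lipid synthesis, so their counts do not describe ketone body synthesis. With G108 on SP, 1 of 5 was called higher and none lower in deposited TPM, where 77.0% of all genes were called higher, and their median was 0.47 against 0.60 over all genes. The called gene was Acat2, the cytosolic thiolase (1.25, SE 0.29, limma adjusted p = 0.00247). Not called were Acss2, a cytosolic acetyl-CoA synthetase (0.53), Hmgcs1, the HMG-CoA synthase of cholesterol synthesis (0.47), Bdh2, a cytosolic relative of Bdh1 (0.29), and Aacs, which activates acetoacetate for lipid synthesis (-0.73). After scaling, Acat2 stood at 0.50 and was not called, and Aacs was called lower (-1.43, SE 0.36, limma adjusted p = 0.0462), a call lost without the libraries that stood apart (-1.07, limma adjusted p = 0.109). Of all genes 2.64% were called after scaling. On HP none of the 5 was called by limma on either scale, against 1.11% of all genes in deposited TPM and 1.21% after scaling. Acat2 was 0.26 in deposited TPM, and Aacs, at -1.09, had the only unadjusted p under 0.05 of the 5, against 11.9% of all genes.

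Among 15 other monocarboxylate transporters and their chaperones, 6 were tested, and 4 were called higher with G108 on SP, a share below the 77.0% of all genes. Slc16a5, for the transporter MCT6, had the largest difference of these (2.26, SE 0.25, limma adjusted p = 7.32e-05), with means ± SD (n = 4) of 0.893 ± 0.269 TPM in vehicle SP and 8.03 ± 1.02 in G108 SP. It was followed by Slc16a10, a transporter of aromatic amino acids (1.13), Bsg, the chaperone basigin that brings MCT1 to the membrane (0.83), and Slc16a7, for MCT2 (0.59). Slc16a11 (-0.22) and Slc16a12 (0.05) were not called. After scaling, Slc16a5 was again called higher (1.70, SE 0.24, limma adjusted p = 0.00126) and Slc16a11 was called lower (-0.85, SE 0.18, limma adjusted p = 0.0203), and Slc16a10 (0.42), Bsg (0.08), Slc16a7 (0.01) and Slc16a12 (-0.61) were not called, against 2.64% of all genes called. Slc16a11 was not called without the libraries that stood apart (-0.79, limma adjusted p = 0.0748). On HP, where 1.11% of all genes were called and 1.21% after scaling, Slc16a5 was the single call of the 6, at 1.23 (SE 0.25, limma adjusted p = 0.0254) from 1.93 ± 0.957 TPM in vehicle HP to 5.83 ± 2.45 in G108 HP, and at 1.14 after scaling (limma adjusted p = 0.0336). Without those libraries it was 1.26 and missed the threshold (limma adjusted p = 0.0626).

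**Figure D4:**
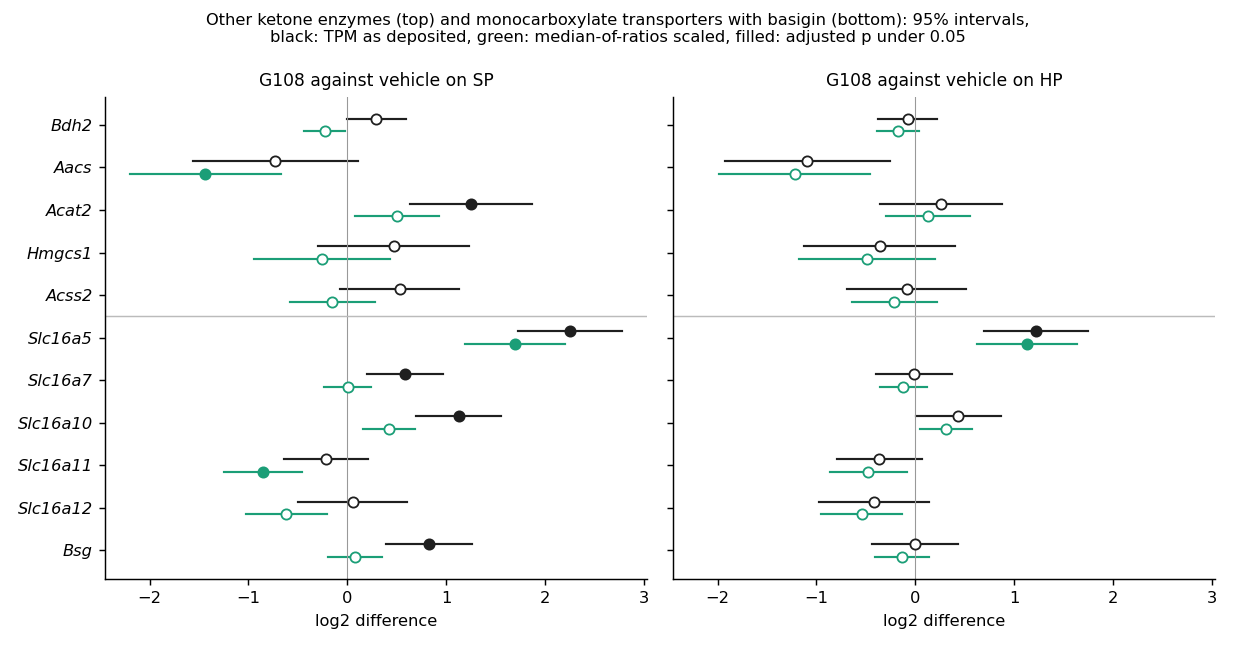
Log2 differences for the tested ketone enzymes (above the line) and the tested monocarboxylate transporters with basigin (below it), G108 against vehicle on each diet, with 95% intervals from limma. Black points are TPM as deposited and green points median-of-ratios scaled, filled where the adjusted p is under 0.05. Slc16a5 is filled in both colours on both diets, from 1.14 to 2.26.

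Fatty acid entry and β-oxidation, which feed acetyl-CoA to Acat1, were called higher with G108 on SP in 19 of 19 genes with deposited TPM, where 77.0% of all genes were, at a median of 1.08 against 0.60 over all genes. Examples were Cpt1a, the gatekeeper of mitochondrial fatty acid entry (1.37), Acadl (1.08) and Acadvl (1.07), acyl-CoA dehydrogenases, and Etfb, their electron acceptor (0.68). After scaling 0 of 19 were called by limma (2.64% of all genes), at a median of 0.33. An unadjusted p under 0.05 was found for 6, against 17.6% of all genes. On HP 0 of 19 were called on either scale, against 1.11% of all genes in deposited TPM and 1.21% after scaling. On each scale 1 had an unadjusted p under 0.05, against 11.9% of all genes in deposited TPM and 1328 of 11839 after scaling. The list of 9 regulators of ketogenesis holds activators and a corepressor, so its count gives no direction for the process. Of the 9, 8 were called higher on SP, near the share of all genes, the exception being Ppara (0.66, limma adjusted p = 0.0516). They included Ppargc1a, a coactivator of fatty acid oxidation genes (1.38, SE 0.16), Creb3l3, a hepatic transcription factor of the fasting response (0.75), Rxra, the partner of PPAR receptors (1.13), and Sirt3, a mitochondrial deacetylase (0.58). Ppargc1a alone of the 9 was also called after scaling (0.89, limma adjusted p = 0.00280), against 2.64% of all genes. On HP, where 1.11% of all genes were called and 1.21% after scaling, it was the single call. Its values there were 0.73 in deposited TPM (limma adjusted p = 0.0338) and 0.65 after scaling (limma adjusted p = 0.0364). Without the libraries that stood apart it missed the threshold on HP (0.78, limma adjusted p = 0.0507). Of the 7 other genes of isoleucine breakdown, which Acat1 completes, 6 were called higher on SP in deposited TPM, again near the share of all genes, among them Dbt (1.06), Bcat2 (0.97), Bckdha (0.87) and Acadsb (0.91), and Hsd17b10 (0.30) was not. After scaling limma called 0 of 7 (2.64% of all genes), with 2 at an unadjusted p under 0.05 (17.6% of all genes). On HP limma called 0 of 7, against 1.11% of all genes in deposited TPM and 1.21% after scaling. None had an unadjusted p under 0.05 in deposited TPM (11.9% of all genes) and 1 did after scaling (1328 of 11839 genes).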

How the data were processed

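Liver RNA was sequenced with 1 library per mouse. The authors checked reads with FastQC 0.11.8, aligned them to GRCm38 with HISAT2 2.0.5, counted reads per gene with featureCounts and ran DESeq2 1.36.0 on counts, which were not used here. The values the authors deposited are TPM, each gene's reads divided by exon length and scaled to the same total in every library, in 16 columns that the sample records assign to groups. Every sample was used. TPM carry changes in abundant transcripts into every other gene.

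GENCODE's GRCm38 annotation supplied symbols for 55141 identifiers and exon lengths for 55227, with coordinates. Depth was recovered from the step of 1 read in low values, of which 98.9% of 113146 lay within 0.02 of a whole read. The spread between 4 mice and, for genes with few reads, counting error set the precision.

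The 11839 genes averaging 1 TPM or more were compared on log2(TPM + 1) with limma 3.58.1 in R 4.3.3, with 1 mean per group, an intensity trend and all 16 libraries. Fold changes are on that scale, which understates the change of low genes such as Slc16a6. P-values were adjusted by Benjamini-Hochberg over these genes, and an adjusted p under 0.05 was a call. The model was tested on simulated data. Python 3.11.15, pandas 2.3.3 and matplotlib 3.10.9 were used for the summaries and plots. Genes named are the 4 members, the tested ketone enzymes and monocarboxylate transporters, up to 4 called genes with the smallest adjusted p of each other list and comparison, the exceptions in a list, and for each member those of the 3 genes with the highest r that are reported here. A few genes are not reported here and were left out of the lists and their counts. Ppara and Hsd17b10 were named as such exceptions after their values were seen. Members and lists were chosen with earlier results of these data known.

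Alternatives were median-of-ratios scaling, TPM rescaled without mitochondrial and Mup genes, a pseudocount of 0.1 in place of 1, no filter, a minimum mean of 5 TPM, array quality weights, voom on the recovered reads, a replicate block for the mouse number, each library left out and fits restricted to the groups compared. Leaving out both libraries that stood apart was added after the data were seen.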

Additional observations from a re-analysis of the deposited data

Results flagged for a closer look

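Acat1 measured 39.4 TPM in vehicle HP mouse 1, against 64.7 to 66.7 TPM in the other 3 mice of the group. The gap to the nearest of them was 0.928 of the range of the group, which marks the mouse as far from the others. It was the 1 such case in 16 combinations of gene and group, and chance marks about 1 group in 20. The same mouse was also the lowest of its group in Bdh1 and Slc16a1, at 33.6 and 3.00 TPM, and the highest in Slc16a6, at 1.21 TPM.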

How the results depend on the processing

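Of the fold changes of the 4 genes under the alternatives, 655 kept their direction and their side of the threshold, 30 passed it newly in the same direction, 17 no longer passed it and 40 changed sign. Of those 40, 3 had been called, all for Slc16a6 with G108 on SP, and 37 were called neither before nor after. For G108 against vehicle on SP, TPM rescaled without mitochondrial and Mup genes gave 0.46 for Acat1, 0.30 for Bdh1, 0.31 for Slc16a1 and -0.047 for Slc16a6, and median-of-ratios scaling gave 0.41, 0.25, 0.28 and -0.076. Voom on the recovered reads gave 0.40, 0.24, 0.41 and -0.15, and median-of-ratios scaling without vehicle SP mouse 4 and G108 HP mouse 3 gave 0.12, 0.0068, 0.0051 and 0.079. None of these 16 values passed the threshold, and the other alternatives kept the calls, although Slc16a1 and Slc16a6 could not be tested at a mean TPM of at least 5. For G108 SP against vehicle HP, the same 4 settings gave Slc16a6 values of 0.27, 0.23, 0.39 and 0.24 without a call. In that pair Acat1, Bdh1 and Slc16a1 were called at 0.71, 0.45 and 0.43 in a fit of only the groups compared and at 0.68, 0.46 and 0.59 with array quality weights, and Acat1 and Slc16a1 at 0.71 and 0.43 without the libraries that stood apart. Array quality weights, which gave vehicle HP mouse 3 a weight of 10.7, also called Slc16a6 on HP (0.23), the 4 genes between HP and SP with G108 (-0.93, -0.88, -0.76 and -0.35) and the interaction of Acat1, Bdh1 and Slc16a1 (-1.02, -1.13 and -0.78). Apart from those built on fewer libraries, the cause was not tested.

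Signs turned without a call mainly in pairs that cross both diet and treatment. For G108 HP against vehicle SP, median-of-ratios scaling gave -0.067 for Bdh1, -0.052 for Slc16a1 and -0.18 for Slc16a6. TPM rescaled without mitochondrial and Mup genes gave -0.050 for Acat1, -0.14 for Bdh1, -0.11 for Slc16a1 and -0.23 for Slc16a6, and voom gave -0.072 for Bdh1, -0.020 for Slc16a1 and -0.34 for Slc16a6. Array quality weights gave -0.15, -0.17 and -0.14 for Acat1, Bdh1 and Slc16a1, and scaling without the libraries that stood apart gave -0.051, -0.16, -0.19 and -0.13 for the 4 genes. For G108 SP against vehicle HP, Bdh1 was -0.11 with scaling, -0.048 rescaled, -0.11 with voom and -0.11 with scaling and without those libraries, and Slc16a1 was -0.027, -0.033 and -0.027 with scaling, voom, and scaling without those libraries. The interaction of Slc16a6 was 0.20 with scaling, 0.13 rescaled and 0.35 with voom. Acat1 was 0.18 for G108 against vehicle on HP without those libraries, and -0.028 for HP against SP with vehicle without them and with scaling.

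With each library left out in turn, HP against SP with G108 ranged from -1.06 to -0.53 for Acat1, -0.97 to -0.53 for Bdh1, -0.82 to -0.50 for Slc16a1 and -0.45 to -0.33 for Slc16a6. Slc16a1 ranged from 0.37 to 0.54 for G108 SP against vehicle HP, and Acat1 from -0.35 to 0.18 for G108 against vehicle on HP. For G108 HP against vehicle SP the ranges were -0.0010 to 0.62 for Acat1, -0.053 to 0.49 for Bdh1, -0.12 to 0.39 for Slc16a1 and -0.065 to 0.11 for Slc16a6. The interaction ranged from -1.50 to -0.91 for Acat1, -1.53 to -0.98 for Bdh1 and -1.31 to -0.80 for Slc16a1, and without the libraries that stood apart it was -0.63, -0.77 and -0.62. All 4 calls on SP held without any 1 library, at 0.81 to 1.39, 0.69 to 1.24, 0.56 to 1.07 and 0.33 to 0.50.

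Counts over all genes moved more, and the number of genes tested differed between settings. With all 16 libraries it was 11839, except for 5360 at a mean TPM of at least 5, 32076 without a filter and 11811 with voom. With libraries left out it lay between 11722 and 11920. On SP, 4479 of 5360 genes is a larger share than 9185 of 11839, so a lower count is not always a lower share. For G108 against vehicle on SP, 9185 genes were called, and 312 with median-of-ratios scaling, 286 rescaled without mitochondrial and Mup genes, 350 with voom, 243 with scaling and without the libraries that stood apart, and 4479 at a mean TPM of at least 5. On HP, 132 were called, and 37 without a filter, 84 in a fit of only the groups compared, 2126 with array quality weights, 63 without the libraries that stood apart and 14 with scaling as well. Without 1 library the HP count ranged from 0 (vehicle HP mouse 4) to 209 (vehicle SP mouse 4), with 7 without vehicle HP mouse 3 and 48, 32 and 30 without G108 HP mice 2, 3 and 4. Between HP and SP with G108, 2 genes were called at a mean TPM of at least 5 and 8502 with array quality weights, and 0 to 5050 without 1 library (5050 without G108 HP mouse 4, 3006 without G108 SP mouse 1, 1728 without vehicle SP mouse 4, and 1 each without vehicle SP mouse 2 and G108 HP mouse 2). With vehicle the count was 79 with array quality weights and 1 without a filter. For the interaction it was 7267 and 1, and 0 to 5188 without 1 library (5188 without G108 HP mouse 4, 3972 without G108 SP mouse 1 and 3461 without vehicle SP mouse 2). For G108 HP against vehicle SP, 531 genes were called, and 326 with scaling, 349 rescaled, 339 without a filter, 188 in a fit of only the groups compared, 1565 with array quality weights, 343 with voom, 157 with scaling and without the libraries that stood apart, and 236 to 646 without 1 library. The count was 324, 298, 325, 282 and 236 without vehicle SP mice 1 and 3 and G108 HP mice 1, 2 and 4. For G108 SP against vehicle HP, 6288 were called, and 124 with scaling, 141 rescaled, 143 with voom, 175 with scaling and without those libraries, 3138 at a mean TPM of at least 5, 10156 with array quality weights and 2902 to 7361 without 1 library (7772 without the libraries that stood apart). It was 3934, 3949 and 3497 without vehicle HP mice 1, 3 and 4 and 2902 and 3694 without G108 SP mice 3 and 4.

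Of 24 pairs of mice with the same number, 8 had a correlation of deviations over 0.1, and the range was -0.58 to 0.53. No pairs of different numbers were set beside them, so these values cannot decide whether the numbers pair the samples. With the number as a replicate block, the 4 genes on SP kept their values of 1.15, 0.99, 0.84 and 0.40 and their calls. The count on HP was 71 and that for G108 HP against vehicle SP 296. With 4 mice per group the intervals were wide, and a gene not called may still differ by any value within its interval. With 110 to 359 reads per library, Slc16a6 carried the most counting error of the 4.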
